A study of Mus musculus with 29 samples.

Results

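Voltage-gated calcium channels of the kind found at retinal ribbon synapses were described here through the genes of their subunits. The set held 10 of the 24062 genes in the RNA-seq table, chosen by name with earlier results of these data known. Its L-type pore-forming subunits were Cacna1f, Cacna1d, Cacna1c and Cacna1s, and its T-type pore-forming subunits Cacna1g and Cacna1h. The beta subunit was Cacnb2, and the alpha2delta subunits were Cacna2d1, Cacna2d3 and Cacna2d4. All 10 passed the filter on low counts. RNA from sorted cells does not show where in a cell the channel protein sits, so "presynaptic" is the known role of several of these genes and was not measured.

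Bipolar cells carry signals from rods and cones to the inner retina, and the study compared their RNA and open chromatin with those of photoreceptors, and ON with OFF types. Sorted cells of adult mice gave 5 populations with 3 RNA-seq libraries each. All bipolar cells (pan-BC) were GFP-positive cells of Otx2-GFP+/- mice, in which GFP is knocked in at Otx2, aged P44 to P47. ON bipolar cells (ON-BC) and OFF bipolar cells (OFF-BC) came from Otx2-GFP+/-; Grm6-YFP+/+ mice aged P42 to P48, where the Grm6 promoter drives YFP in ON types. OFF-BCs were sorted through a second round and ON-BCs were not, and an ON type with little Grm6 (BC5D) was probably in neither sort. The study estimates that rod bipolar cells make up most of its ON population. Rod bipolar cells and ON cone bipolar cells therefore cannot be told apart in ON-BCs. Rods came from Nrl-eGFP mice and blue cones from Nrl-eGFP;NrlKO mice, both at P56. Blue cones here are therefore photoreceptors of a retina that lacks Nrl, not the rare blue cones of a wild-type retina. ATAC-seq, which reads open chromatin, had 2 libraries each for 6 populations, in which pan-BCs also carried Grm6-YFP+/+ (P43 to P44) and green cones came from Opn1mw-GFP mice at P56. Photoreceptor libraries were re-analysed by the authors from earlier work of the same laboratory, so cell class, study and age cannot be told apart in the pan-BC versus photoreceptor comparisons.

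RNA-seq libraries held 12329548 to 26266746 counted reads (median 15569580), with the blue cone libraries the deepest, and ATAC-seq libraries held 4176776 to 12345845 (median 6648830). Nrl, which marks rods, was at 11476 to 16599 normalized counts in rods and 486 to 764 in blue cones, and Grm6 at 13260 to 13835 in ON-BCs. The OFF marker Tacr3 was at 1734 to 2749 in OFF-BCs and 2.05 to 18.6 in ON-BCs. Vsx1, listed as an OFF marker, went against that, at 847 to 1049 in ON-BCs and 175 to 351 in OFF-BCs. Cabp5, listed as a bipolar marker, was not low in blue cones, at 25242 to 29460 against 31929 to 43236 in pan-BCs. OFF-BC library 3 stood apart, with Grm6 at 593 normalized counts against 145 and 64.9 in OFF-BC libraries 1 and 2, and the blue cone opsin Opn1sw at 55813 against 4477 and 4314. Summed over 6 cone markers, none of them at 0, pan-BC libraries spanned 40600 to 66380 normalized counts and OFF-BC libraries 20850 to 90540. ON-BC libraries spanned 4063 to 4701 and blue cone libraries 1479000 to 1702000. Summed over 6 rod markers, pan-BC libraries spanned 32960 to 41460 and rod libraries 1751000 to 2410000. Of the 5 ON bipolar markers all were detected in OFF-BCs, at sums of 5802 to 10150 against 98620 to 111300 in ON-BCs. Trpm1 made up most of the OFF-BC sums, at 5930, 5394 and 7567. In OFF-BCs, Grm6 and Isl1 were at 0.481 to 4.39% and 0.618 to 5.06% of their ON-BC means. Prkca was at 66.1 to 533 against 6656 to 9037 in ON-BCs, and Nyx at 76 to 131 against 547 to 653. The part of these other cells in the results below was not tested, and ON-BC versus OFF-BC differences in RNA that were called are given with and without OFF-BC library 3.

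A voltage-gated calcium channel opens on depolarization and lets in the calcium that triggers release of transmitter. Its pore-forming subunit sets the current: L-type channels inactivate slowly and drive sustained release at ribbon synapses, while T-type channels open near rest and close quickly. Beta and alpha2delta subunits bring the pore to the membrane and adjust its gating. Cacna1f and Cacna2d4 are known for congenital stationary night blindness and cone dystrophy when mutated, through the photoreceptor synapse.

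**Figure D1:**
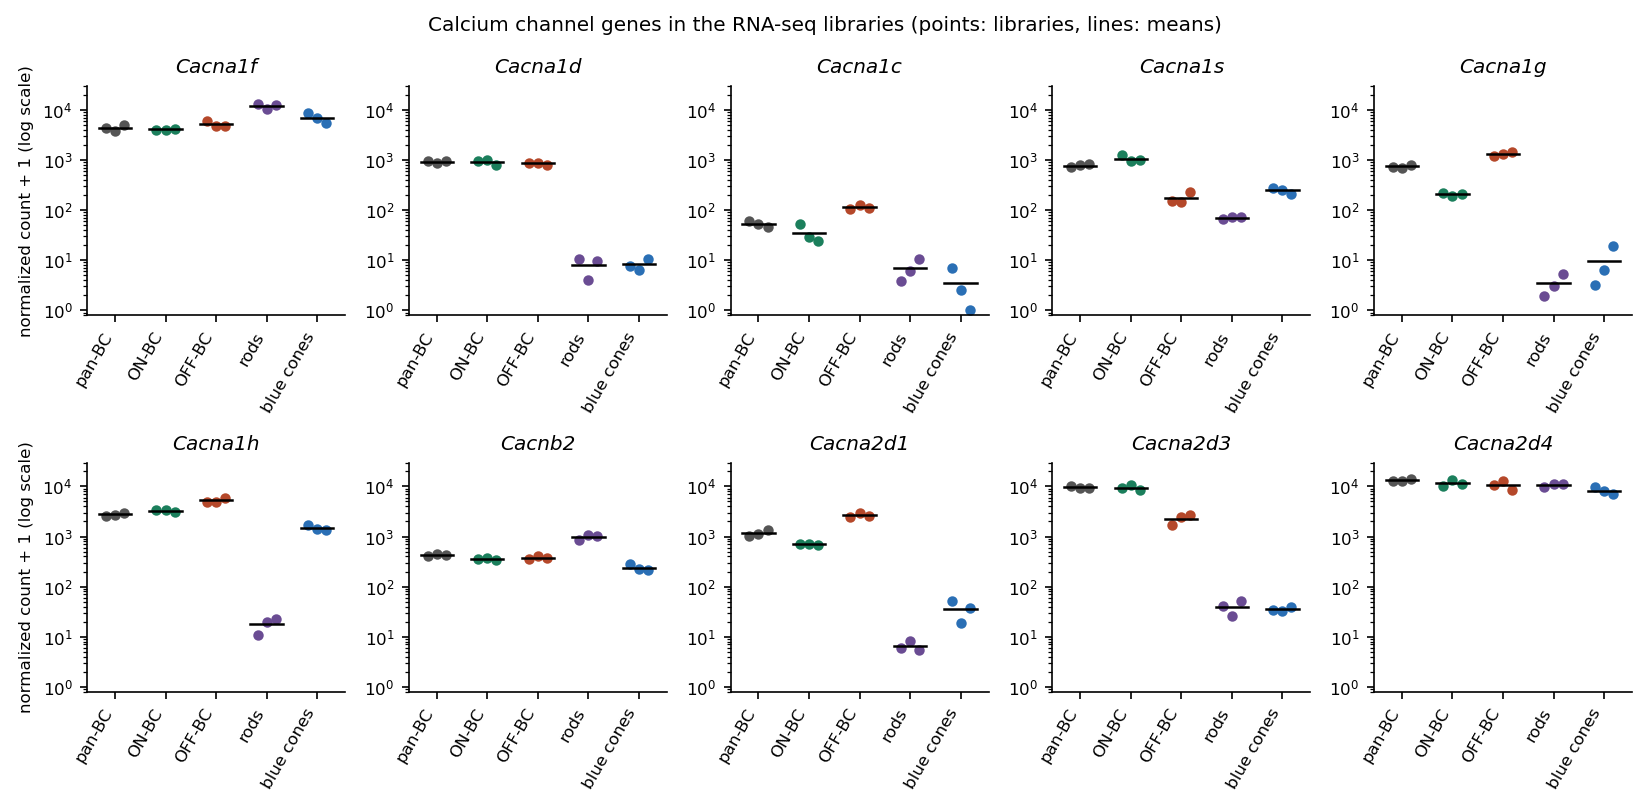
Normalized count plus 1 (log axis) of the 10 calcium channel genes in each RNA-seq library (points) with the mean of 3 libraries (lines) for pan-BC, ON-BC, OFF-BC, rods and blue cones. Cacna1f, Cacnb2 and Cacna2d4 stay within one decade across the 5 populations, while Cacna1d, Cacna1g, Cacna2d1 and Cacna2d3 lie far lower in both photoreceptor populations.

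Normalized counts below are reads divided by the size factor of the library. Changes are log2 fold changes of normalized count plus 1 from limma, called at a Benjamini-Hochberg adjusted p below 0.05 in a test against a threshold of 1 on that scale (limma treat), over all 14024 genes tested. In sorted bulk cells, fewer cells of a type that uses a gene and less RNA of that gene per cell cannot be told apart.

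Among the L-type pores, Cacna1f, which encodes the pore of the main photoreceptor synaptic channel, was the most abundant per kb of exon in every population and differed least. Rods held 12831, 10521 and 12302 normalized counts, blue cones 8581, 6744 and 5530, and pan-BCs 4343, 3787 and 5035. ON-BCs held 3940, 4056 and 4217 and OFF-BCs 5893, 4826 and 4820. The 3 rod libraries lay above all others, whereas blue cones overlapped OFF-BCs, OFF-BCs overlapped pan-BCs and pan-BCs overlapped ON-BCs. Cacna1f was lower in pan-BCs than in rods by a log2 fold change of -1.44 ± 0.15 (SE, n = 3 and 3; limma treat adjusted p = 0.0122). That call was lost with library-total scaling (-1.09, adjusted p = 0.534) and without pan-BC library 2 (-1.34, adjusted p = 0.0685). Pan-BC values were 31.9 to 42.4% of the rod mean, where the rod transducin gene Gnat1 was at 0.915 to 1.1% of its own. Between ON-BC and OFF-BC the difference was -0.34 with a 95% interval of -0.66 to -0.02, which did not reach the threshold of 1.

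Cacna1d, the L-type pore of hair cells and many neurons, was detected at 967, 861 and 937 normalized counts in pan-BCs, 967, 1014 and 777 in ON-BCs and 884, 877 and 804 in OFF-BCs. In rods it was at 9.7, 3.07 and 8.65 and in blue cones at 6.77, 5.31 and 9.62. The bipolar libraries thus overlapped one another and lay above every photoreceptor library. The rod values were 0.333 to 1.05% and the blue cone values 0.576 to 1.04% of the pan-BC mean, and Trpm1, an ON bipolar marker, was at 0.192 to 0.389% and 0.423 to 0.763% of its pan-BC mean in the same libraries. The part of bipolar RNA in these low photoreceptor values, here and for the genes below, was not tested. Cacna1d was higher in pan-BCs than in rods by 6.94 ± 0.30 (SE; adjusted p = 1.04e-11) and than in blue cones by 6.84 ± 0.30 (adjusted p = 4.46e-11). The ON-BC versus OFF-BC difference was 0.10, with a 95% interval of -0.53 to 0.72. Exons of Cacna1d share 526 bp with Chdh on the opposite strand, and reads there cannot be told apart if the counting ignored strand.

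Cacna1s, best known as the pore of the skeletal muscle channel, separated ON from OFF bipolar cells. ON-BCs held 1236, 948 and 994 normalized counts and OFF-BCs 154, 143 and 226. Pan-BCs held 708, 782 and 830, blue cones 279, 255 and 207, and rods 66.9, 70.7 and 71.3. Every ON-BC library was above every pan-BC library, and these above all others, while blue cones and OFF-BCs overlapped. Cacna1s was higher in ON-BCs than in OFF-BCs by 2.62 ± 0.18 (SE, n = 3 and 3; adjusted p = 3.78e-06), and by 2.82 without OFF-BC library 3. It was higher in pan-BCs than in rods by 3.45 ± 0.18 and than in blue cones by 1.65 ± 0.18 (adjusted p = 1.23e-09 and 0.00341), and lower in rods than in blue cones by -1.80 ± 0.18 (adjusted p = 0.00154). Rod values were 8.66 to 9.22% of the pan-BC mean, above the 0.192 to 0.389% of Trpm1 in those libraries.

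Cacna1c, the L-type pore of heart and many neurons, was the least abundant pore of the set per kb of exon in all bipolar populations. OFF-BCs held 103, 124 and 110 normalized counts, pan-BCs 59.6, 51.4 and 44.0, and ON-BCs 51.6, 27.4 and 23.6. Rods held 2.91, 5.12 and 9.73 and blue cones 6.02, 1.52 and 0, which rests on 17 and 10 reads per population. OFF-BCs did not overlap any other population, yet the ON-BC versus OFF-BC difference of -1.76 ± 0.56 did not pass the test (adjusted p = 0.87). Cacna1c was higher in pan-BCs than in rods by 3.04 ± 0.56 (adjusted p = 0.00314) and than in blue cones by 4.33 ± 0.56 (adjusted p = 5.63e-05).

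The T-type pore Cacna1g was highest in OFF-BCs and near 0 in rods. OFF-BCs held 1209, 1343 and 1471 normalized counts, pan-BCs 733, 696 and 809, and ON-BCs 221, 186 and 211. Blue cones held 2.26, 5.31 and 18.5, and rods 0.97, 2.05 and 4.32, the latter being 1, 2 and 4 reads. The 3 bipolar populations formed 3 separate ranges with pan-BCs between ON-BCs and OFF-BCs. Cacna1g was lower in ON-BCs than in OFF-BCs by -2.70 ± 0.47 (SE; adjusted p = 0.0197). The value stayed between -2.77 and -2.62 when any of the 6 libraries was left out, but the adjusted p then rose to 0.0506 to 0.068, and without OFF-BC library 3 it was -2.63 (adjusted p = 0.068). Cacna1g was higher in pan-BCs than in rods by 7.88 ± 0.47 and than in blue cones by 6.66 ± 0.47 (adjusted p = 6.05e-10 and 1.49e-08).

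Cacna1h, the other T-type pore of the set, was the gene of the set that most set blue cones apart from rods. Blue cones held 1665, 1395 and 1335 normalized counts and rods 9.7, 18.4 and 21.6. OFF-BCs held 4985, 4895 and 5940, ON-BCs 3316, 3445 and 3110, and pan-BCs 2623, 2700 and 2995. No 2 of the 5 populations overlapped, and the pan-BC range lay below both ON-BCs and OFF-BCs. Cacna1h was lower in rods than in blue cones by -6.44 ± 0.20 (SE, n = 3 and 3; adjusted p = 4.35e-13) and higher in pan-BCs than in rods by 7.37 ± 0.20 (adjusted p = 3.63e-14). The pan-BC versus blue cone difference of 0.92 ± 0.20 and the ON-BC versus OFF-BC difference of -0.68 ± 0.20 did not pass the threshold of 1 (adjusted p = 1 for both). Blue cone values were 48.2 to 60.1% of the pan-BC mean, against 0.423 to 0.763% for Trpm1 in the same libraries. Exons of Cacna1h share 156 bp with Tpsg1 on the opposite strand.

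Cacnb2, the beta subunit of photoreceptor and other L-type channels, was highest in rods at 836, 1067 and 1015 normalized counts. Pan-BCs held 406, 437 and 418, OFF-BCs 353, 414 and 363, ON-BCs 355, 365 and 332, and blue cones 282, 227 and 209. Rods lay above and blue cones below all other populations, and the bipolar ranges overlapped in part. Cacnb2 was higher in rods than in blue cones by 2.02 ± 0.14 (SE; adjusted p = 8.74e-06). The pan-BC versus rod difference of -1.20 ± 0.14 was not called by limma treat (adjusted p = 0.163) and was called by edgeR (-1.27, adjusted p = 0.0167). The ON-BC versus OFF-BC difference was -0.10, with a 95% interval of -0.39 to 0.19.

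The 3 alpha2delta genes of the set had 3 different patterns. Cacna2d4, the subunit that partners the photoreceptor channel, was at 12947, 12560 and 14138 normalized counts in pan-BCs, 10055, 13660 and 11078 in ON-BCs and 10812, 12585 and 8439 in OFF-BCs. Rods held 9596, 10966 and 10954 and blue cones 9589, 8116 and 6942. Its means differed by 1.61 times at most, no comparison was called, and the fitted differences ran from 0.14 (ON-BC versus OFF-BC; 95% interval -0.20 to 0.48) to 0.70 (pan-BC versus blue cones; 0.36 to 1.04). With limma against a change of 0, the pan-BC versus blue cone difference passed (adjusted p = 0.000869). Cacna2d4 shares 11 bp of exon with Lrtm2.

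Cacna2d3 was a bipolar gene with an ON bias. Pan-BCs held 10104, 9094 and 9360 normalized counts, ON-BCs 9486, 10606 and 8356, and OFF-BCs 1693, 2473 and 2678. Rods held 40.7, 24.6 and 50.8 and blue cones 33.1, 31.9 and 38.5. Pan-BCs and ON-BCs overlapped above the OFF-BCs, and rods and blue cones overlapped far below. Cacna2d3 was higher in ON-BCs than in OFF-BCs by 2.08 ± 0.21 (SE, n = 3 and 3; adjusted p = 0.00125), and by 2.21 without OFF-BC library 3 (adjusted p = 0.0013). It was higher in pan-BCs than in rods by 7.96 ± 0.21 and than in blue cones by 8.07 ± 0.21 (adjusted p = 2.92e-14 and 1.27e-13). The rod values, 0.258 to 0.534% of the pan-BC mean, and the blue cone values, 0.335 to 0.404%, stood beside 0.192 to 0.389% and 0.423 to 0.763% for Trpm1 in those libraries.

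Cacna2d1, the widely expressed alpha2delta subunit that binds gabapentin, had an OFF bias. OFF-BCs held 2416, 2994 and 2610 normalized counts, pan-BCs 1016, 1130 and 1368, and ON-BCs 719, 714 and 661. Blue cones held 50.4, 18.2 and 37.0 and rods 4.85, 7.17 and 4.32. None of the 5 populations overlapped another. Cacna2d1 was lower in ON-BCs than in OFF-BCs by -1.93 ± 0.27 (SE; adjusted p = 0.0286). Leaving out any of the 6 libraries kept the value between -2.00 and -1.85 but moved the adjusted p to 0.0568 to 0.127, with -1.95 and 0.0708 without OFF-BC library 3. It was higher in pan-BCs than in rods by 7.52 ± 0.27 and than in blue cones by 5.12 ± 0.27, and lower in rods than in blue cones by -2.40 ± 0.27 (adjusted p = 1.17e-12, 1.03e-09 and 0.000501). Blue cone values were 1.55 to 4.3% of the pan-BC mean.

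**Figure D2:**
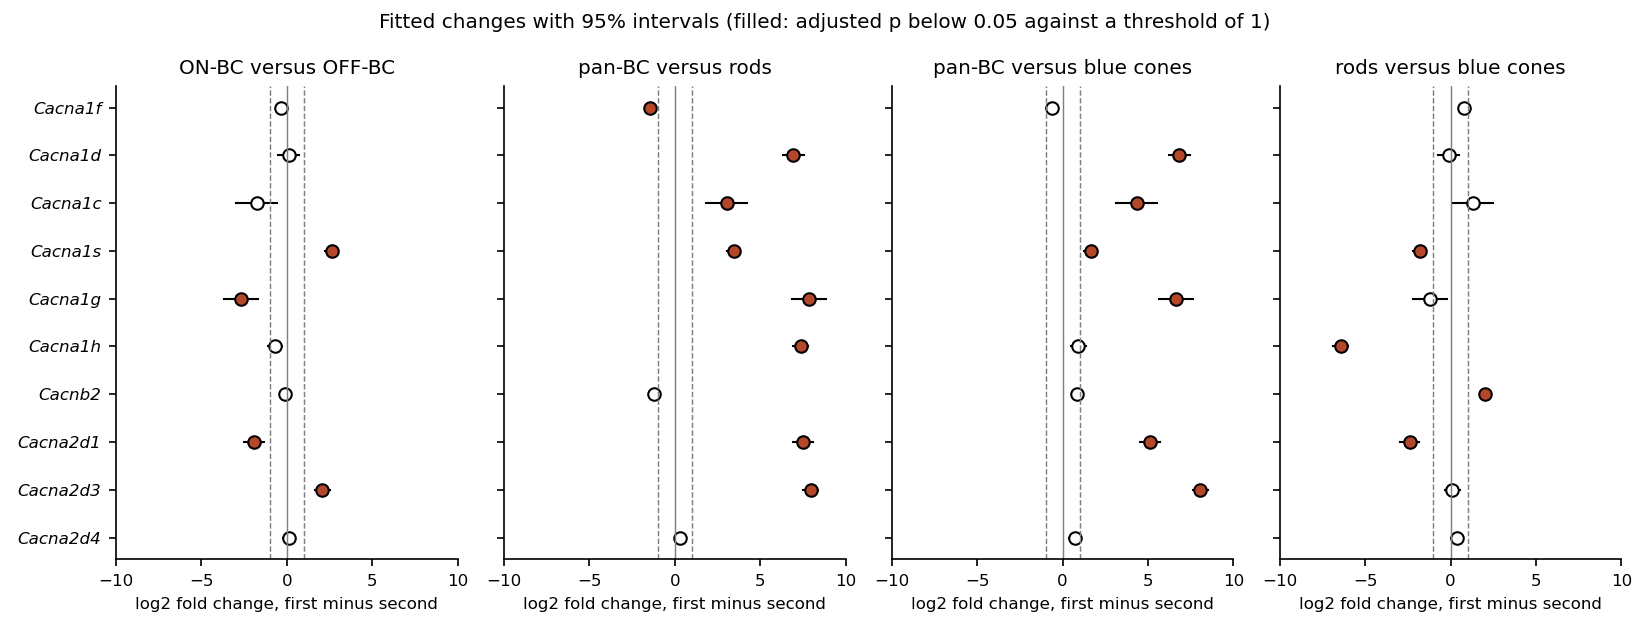
Log2 fold change of normalized count plus 1 (horizontal axis, first population minus second) of the 10 genes in 4 comparisons, with 95% intervals (lines) and filled points where the limma treat adjusted p was below 0.05; dashed lines mark the threshold of 1. Cacna1s and Cacna2d3 lie to the right and Cacna1g and Cacna2d1 to the left in ON-BC versus OFF-BC, and Cacna1h is the farthest left in rods versus blue cones.

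Counted over the set, 4 of the 10 genes were called between ON-BC and OFF-BC, 2 in each direction. Of all 14024 genes, 6.55% were called (2.95% higher and 3.60% lower in ON-BCs). With any 1 of the 6 libraries left out, 2 of the 10 were called. Cacna1s and Cacna2d3 kept their calls in each case, while Cacna1g and Cacna2d1 lost theirs. Without OFF-BC library 3 the 6 genes that were not called stayed so, with Cacna1c at -1.77, Cacna1h at -0.59, Cacna1f at -0.39, Cacnb2 at -0.13, Cacna1d at 0.05 and Cacna2d4 at -0.02 (adjusted p = 1 for each). Between pan-BC and rods 8 were called, 7 higher and 1 lower in pan-BCs, where 43.6% of genes were called (27.8% higher and 15.8% lower). Between pan-BC and blue cones 6 were called, all higher in pan-BCs, where 36.3% of genes were called (22.7% higher and 13.7% lower). Between rods and blue cones 4 were called, Cacnb2 higher in rods and Cacna1h, Cacna1s and Cacna2d1 lower, where 15.9% of genes were called (4.63% higher and 11.3% lower). The libraries of both populations did not overlap for 7, 10, 10 and 6 of the 10 genes in these 4 comparisons, and for 42.2%, 83.7%, 78.4% and 60.9% of all genes. The median log2 fold change of the set was 5.2 in pan-BC versus rods and 2.99 in pan-BC versus blue cones, against 0.211 and 0.158 over all genes tested. In ON-BC versus OFF-BC it was -0.221 and in rods versus blue cones 0.0022, against -0.015 and -0.00469. The set's share of calls was above that of all genes in each comparison. The 10 genes were chosen by name with earlier results of these data known, so these shares describe them and test nothing. The last 3 comparisons share libraries, so they are not independent of each other.

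Levels can be compared between genes only per length of exon, here as normalized count per kb. Among the 6 pore-forming genes of the set, Cacna1f made up 99.3 ± 0.11% (SD, n = 3) of the sum in rods and 83.7 ± 1.5% in blue cones. Bipolar cells divided the sum among more genes. In pan-BCs Cacna1f was at 52.4 ± 2.4%, in ON-BCs 49.2 ± 2.5% and in OFF-BCs 47.8 ± 4.5%. Cacna1h was second in every population but rods, with 24.6 ± 1.4% in pan-BCs, 29.3 ± 1.2% in ON-BCs, 35.9 ± 3.4% in OFF-BCs and 13.2 ± 1.3% in blue cones, against 0.104 ± 0.042% in rods. The sum over the 6 genes was 1971 ± 199 per kb in rods and 1783 ± 92.5 in OFF-BCs. It was 1374 ± 138 in pan-BCs, 1362 ± 21.1 in ON-BCs and 1363 ± 278 in blue cones. Cacna1a, Cacna1b, Cacna1e and Cacna1i, pore-forming genes outside the set, were left out of these sums, so the shares are not those of all pores. Cacna1i held 421.7 ± 33.8 (SD) normalized counts in ON-BCs and 88.9 ± 14.7 in OFF-BCs, a difference not called (2.24 ± 0.55, SE; limma treat adjusted p = 0.214).

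The makeup below Cacna1f and Cacna1h changed places between bipolar types. Cacna1s made up 12.2 ± 1.7% (SD, n = 3) of the pore-forming sum in ON-BCs and 1.54 ± 0.36% in OFF-BCs, whereas Cacna1g made up 1.84 ± 0.16% in ON-BCs and 9.17 ± 1.1% in OFF-BCs. Cacna1d was at 7.2 ± 0.9% and 5.14 ± 0.44%. Among the alpha2delta genes of the set, Cacna2d4 made up 99.4 ± 0.19% in rods and 99 ± 0.25% in blue cones. Bipolar populations held Cacna2d3 beside it. In ON-BCs Cacna2d3 was at 55.7 ± 2.8% and Cacna2d4 at 42.2 ± 3%, and in OFF-BCs Cacna2d4 was at 64.4 ± 6.7%, Cacna2d3 at 22.6 ± 5.9% and Cacna2d1 at 13 ± 0.87%. Cacna2d2, an alpha2delta gene outside the set, was left out of these sums, so the shares are not those of the whole family. It held 2342 ± 260 normalized counts in OFF-BCs, where Cacna2d1 held 2673 ± 294 and Cacna2d3 2281 ± 520.

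**Figure D3:**
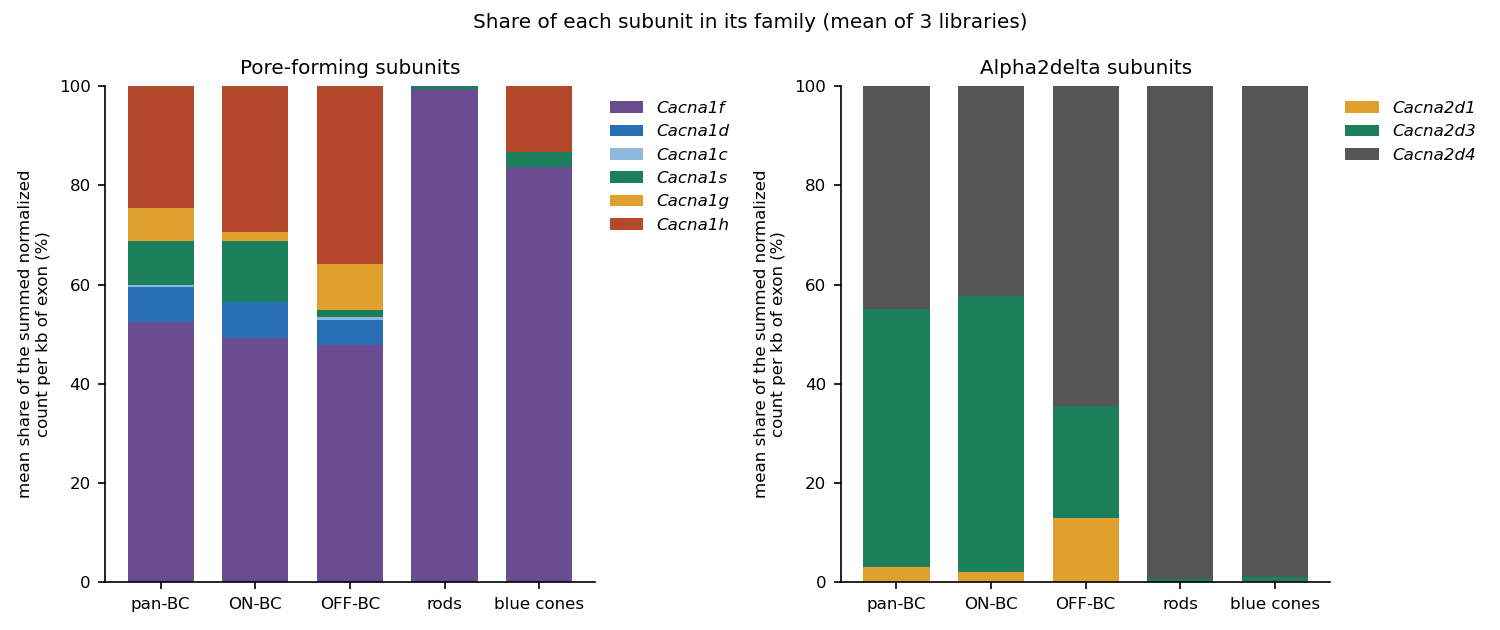
Mean share (percent, vertical axis) of each gene in the summed normalized count per kb of exon, for the 6 pore-forming genes (left) and the 3 alpha2delta genes (right, Cacna2d2 left out) of the set, in 5 populations (mean of 3 libraries). Cacna1f fills nearly the whole rod bar and 83.7% of the blue cone bar, and Cacna2d4 99.4% of the rod bar and 99% of the blue cone bar.

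Other genes of the pathway were read from lists of named genes. Of 4 further pore-forming genes all were tested, and all 4 were called higher in pan-BCs than in rods and than in blue cones. Over all genes, 27.8% and 22.7% were called in those directions. Among the 4 was Cacna1b, the N-type pore of many central synapses, at 531.6 ± 27.3 (SD) normalized counts in pan-BCs, 3.83 ± 2.48 in rods and 11.04 ± 9.2 in blue cones. Of 6 further auxiliary genes 4 were tested, and the alpha2delta gene Cacna2d2 differed most: OFF-BCs held 2342 ± 260 and ON-BCs 37.7 ± 21.7 normalized counts, a log2 fold change of -6.05 ± 0.37 (SE; adjusted p = 5.97e-08), and -6.14 without OFF-BC library 3. Cacna2d2 and the member Cacna2d1 were thus both called lower in ON-BCs. In the 4 comparisons as ordered above, median changes of the auxiliary list were -1.5, 2.8, 1.45 and -0.897, and those of the pore-forming list 1.01, 5.06, 4.91 and 0.348. With genes at 0 in a whole population set to the limit that 3 reads over it allow, the latter were 1.01, 4.96, 4.91 and 0.553.

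Of 13 tested genes for proteins that bind and adjust the channels, 10 were called higher and 1 lower in pan-BCs than in rods, and 7 higher and 2 lower than in blue cones. Over all genes, 27.8% were called higher and 15.8% lower against rods, and 22.7% and 13.7% against blue cones. Cabp4, a calmodulin-like sensor that binds the channel made from Cacna1f, was the 1 lower in pan-BCs than in rods, at 107.1 ± 24.6 against 5911 ± 604 normalized counts (-5.79 ± 0.48; adjusted p = 7.74e-08). Cabp4 was at 2530 ± 378 in blue cones. Its relatives Cabp1 and Cabp5, the latter also listed as a bipolar marker, were called higher in pan-BCs than in rods. Cabp5 was not called against blue cones (0.48 ± 0.17). Gem, a small GTPase that binds beta subunits, was at 5154 ± 325 in pan-BCs, 3633 ± 121 in blue cones and 47.3 ± 6.55 in rods. Gem and the T-type gene Cacna1h thus both had low rod values, and both were called in rods versus blue cones (-6.24 ± 0.12 for Gem; adjusted p = 1.6e-15). Medians of this list were -0.263, 4.65, 2.49 and -1.62, also with genes at 0 set to that limit.

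Of 11 active zone genes 4 were higher and 1 lower in pan-BCs than in rods, and 5 higher and 1 lower than in blue cones. Of all genes, 27.8% and 15.8%, and 22.7% and 13.7%, were called in those directions, so 4 of 11 and 1 of 11 against rods were near the shares of all genes. Between ON-BC and OFF-BC 0 of the 11 were called by limma treat, with 1 at an unadjusted p below 0.05 and 1 called by edgeR. Without OFF-BC library 3, limma treat called Elfn1 (3.03 ± 0.48, SE; adjusted p = 0.00752) and Erc2 (-1.60 ± 0.17; adjusted p = 0.024). With all libraries Elfn1 was low in both, at 14.6 ± 5.27 (SD) in ON-BCs and 9.26 ± 14 in OFF-BCs. The 1 gene lower in pan-BCs than in both photoreceptor populations was Elfn1, an adhesion gene of the rod synapse, at 33.9 ± 18.4 normalized counts in pan-BCs, 701 ± 75.1 in rods and 537.2 ± 119 in blue cones. Of 5 tested genes for channels that calcium opens, 3 were higher and 1 lower in pan-BCs than in each photoreceptor population. The potassium channel pore Kcnma1 was at 19450 ± 710 normalized counts in pan-BCs and 65.7 ± 29.4 in rods, and the chloride channel Ano2 at 237.9 ± 17.5 and 3285 ± 512. Kcnmb4, a subunit of the Kcnma1 channel, was lower in ON-BCs than in OFF-BCs (-3.13 ± 0.33; adjusted p = 0.000136), also without OFF-BC library 3 (-3.02; adjusted p = 0.00143).

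Likeness of pattern was described by Pearson correlation over the 15 libraries, which share 5 populations and so hold few independent points. Cacna1d was most like Kif5c (r = 0.997), Cacna1s like Map4 (0.987), Cacna1g like Cdc42ep5 (0.992) and Cacna1h like App (0.998). Cacna2d1 was most like Tespa1 (0.997) and Cacna2d3 like Rgs16 (0.998), with Bhlhe23 next (0.996). Cacna2d4 had no close partner, its highest r being 0.903 with Ep300. Within the set, Cacna1d and Cacna2d3 ran most alike (0.98), then Cacna1g and Cacna2d1 (0.97), whereas Cacna1f ran against Cacna1h (-0.88).

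Chromatin at these genes was read from the table of 110715 regions of 200 bp, of which 104 had the start site of a member as the nearest one. Of these 104 regions, 89 were in introns, 10 in exons and 5 between genes, and 101 passed the filter on low counts. Distances are from the region centre to the start site, and positions are in GRCm38 (mm10). A region was assigned by distance alone, and nothing measured here links it to the gene.

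Between pan-BC and rods 65 of the 101 regions were called, 59 more open and 6 less open in pan-BCs, where 51.6% of all 108448 regions tested were called (40.3% and 11.2%). Between pan-BC and blue cones 44 were more open and 5 less open, where 28.8% and 7.13% of all regions were. Between rods and blue cones 13 were called, all less open in rods, where 10% of all regions were called (1.46% more open and 8.56% less open). Between ON-BC and OFF-BC 6 were called, 4 more open and 2 less open in ON-BCs, where 7.39% of all regions were called (4.58% and 2.80%), so the set's share was near that of all regions. Cacna2d1 had 16 of 17 regions and Cacna1d 15 of 18 more open in pan-BCs than in rods, and none less open. Cacnb2 (6 more open, 2 less open of 20 tested) and Cacna2d4 (2 and 3 of 10) did not follow that split. Cacna1f had a lone region, at its promoter.

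**Figure D4:**
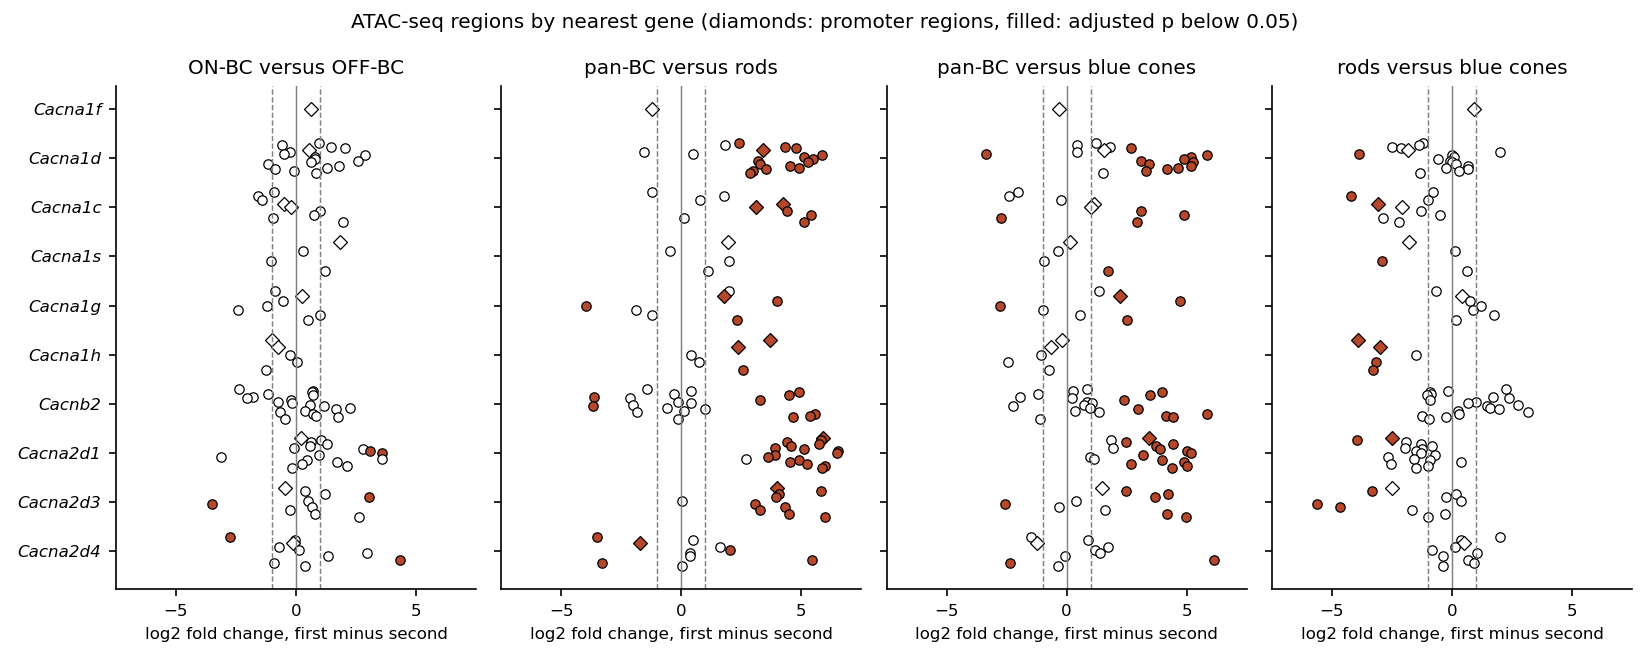
Log2 fold change of normalized ATAC-seq count plus 1 (horizontal axis, first population minus second) of each tested region, by gene, in 4 comparisons, with diamonds for promoter regions and filled symbols for limma treat adjusted p below 0.05. Points of Cacna2d1 and Cacna1d lie to the right in pan-BC versus rods, and all 13 filled symbols in rods versus blue cones lie to the left.

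Of the regions, 8 are printed to show the sequence behind the chromatin results: the 6 called between ON-BC and OFF-BC, the Cacna1h promoter region outside the exons, and the region with the highest mean in rods outside exons and promoters, at Cacnb2. The last, and the regions of Cacna2d3 at 133720 bp and Cacna2d4 at 18114 bp, were picked after their values were seen. Each is the forward strand, 5′ to 3′, of the GRCm38 reference, with capitals on any match to TAATCC or to TAATTA and TAATTG (letters bound by the K50 and Q50 classes of homeodomain factors), or to the E-box CANNTG of bHLH factors, on either strand.
Cacna2d1, 69830 bp downstream, chr5:16004421-16004620: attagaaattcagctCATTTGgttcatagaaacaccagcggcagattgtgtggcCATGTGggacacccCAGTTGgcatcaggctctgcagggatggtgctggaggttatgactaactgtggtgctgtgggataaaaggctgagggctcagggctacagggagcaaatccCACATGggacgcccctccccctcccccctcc
Cacna2d1, 81529 bp downstream, chr5:16016120-16016319: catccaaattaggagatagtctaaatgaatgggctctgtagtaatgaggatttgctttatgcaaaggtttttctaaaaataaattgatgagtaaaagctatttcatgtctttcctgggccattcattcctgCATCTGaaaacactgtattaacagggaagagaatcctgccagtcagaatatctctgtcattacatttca
Cacna2d3, 133720 bp downstream, chr14:29588044-29588243: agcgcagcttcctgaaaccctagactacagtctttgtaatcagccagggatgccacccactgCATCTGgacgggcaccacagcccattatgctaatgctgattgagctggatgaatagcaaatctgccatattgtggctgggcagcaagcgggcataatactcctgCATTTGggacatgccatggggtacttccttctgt
Cacna2d3, 173059 bp downstream, chr14:29548705-29548904: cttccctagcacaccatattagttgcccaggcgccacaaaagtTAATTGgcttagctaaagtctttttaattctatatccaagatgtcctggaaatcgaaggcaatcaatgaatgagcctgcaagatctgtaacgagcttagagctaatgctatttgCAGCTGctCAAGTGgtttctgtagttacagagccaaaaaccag
Cacna2d4, 30710 bp downstream, chr6:119267134-119267333: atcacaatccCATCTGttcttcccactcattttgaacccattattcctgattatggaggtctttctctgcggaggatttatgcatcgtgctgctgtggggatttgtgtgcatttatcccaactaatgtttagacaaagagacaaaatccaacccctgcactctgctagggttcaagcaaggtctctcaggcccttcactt
Cacna2d4, 18114 bp upstream, chr6:119218310-119218509: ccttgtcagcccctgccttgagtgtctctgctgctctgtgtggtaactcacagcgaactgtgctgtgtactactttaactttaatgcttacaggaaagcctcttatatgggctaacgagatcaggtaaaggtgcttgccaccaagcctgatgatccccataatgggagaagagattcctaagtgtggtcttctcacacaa
Cacna1h, 283 bp upstream, chr17:25433966-25434165: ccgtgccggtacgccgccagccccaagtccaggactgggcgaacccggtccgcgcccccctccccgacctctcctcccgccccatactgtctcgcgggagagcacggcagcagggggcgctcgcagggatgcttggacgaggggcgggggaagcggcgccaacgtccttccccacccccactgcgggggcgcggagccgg
Cacnb2, 11266 bp upstream, chr2:14862290-14862489: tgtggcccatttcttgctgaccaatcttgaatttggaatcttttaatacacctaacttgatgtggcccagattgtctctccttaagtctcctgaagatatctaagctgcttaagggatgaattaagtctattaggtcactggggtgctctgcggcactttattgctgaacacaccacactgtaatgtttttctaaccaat
No printed region held TAATCC or TAATTA, 1 of 8 held TAATTG and 5 of 8 held CANNTG. Among all 110715 regions the shares with these letters were 21.8%, 5.2%, 6.88% and 68.7%. CAGATG, a form of CANNTG, was in the printed regions of Cacna2d4 at 30710 bp, Cacna2d1 at 81529 bp and Cacna2d3 at 133720 bp, and in 22.3% of all regions. A match describes letters and is no evidence of binding.

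The 2 Cacna2d1 regions with an ON-BC versus OFF-BC call are in its introns. At 69830 bp downstream the ON-BC libraries held 152 and 199 normalized ATAC-seq counts and the OFF-BC libraries 21.6 and 17.5, with 110 and 178 in pan-BCs and 0 and 1.36 in rods. At 81529 bp downstream ON-BCs held 142 and 130 and OFF-BCs 9.43 and 11.7. Both were more open in ON-BCs, by 3.10 ± 0.54 and 3.57 ± 0.77 (SE, n = 2 and 2; limma treat adjusted p = 0.014 and 0.0312). The RNA of Cacna2d1 was lower in ON-BCs, at 698.1 ± 32.4 (SD, n = 3) against 2673 ± 294 normalized counts, so RNA and these regions differed in opposite directions. Its promoter region, 75 bp upstream of the start site, was at 119 and 90.8 in ON-BCs and 82.2 and 96.4 in OFF-BCs, and was not called (0.22 ± 0.46).

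Cacna2d3 had an intronic region on each side. At 133720 bp downstream ON-BCs held 62.7 and 46.9 and OFF-BCs 5.39 and 5.84 normalized ATAC-seq counts (3.06 ± 0.64; adjusted p = 0.0354). At 173059 bp downstream OFF-BCs held 78.1 and 27.3 and ON-BCs 5.97 and 1.46 (-3.51 ± 0.67; adjusted p = 0.0162). The latter was also open in blue cones (89.4 and 97.6) and green cones (33.8 and 38.0) and nearly closed in rods (0 and 2.71), and was less open in rods than in blue cones by -5.61 ± 0.67 (adjusted p = 5.88e-05). A region 175561 bp downstream, at 77.7 and 78.0 in blue cones and 3.12 and 1.36 in rods, had the same order (-4.66 ± 0.37; adjusted p = 9.53e-07). Cacna2d3 RNA was near its lowest in both photoreceptor populations, at 34.5 ± 3.52 normalized counts in blue cones and 38.7 ± 13.2 in rods. These 2 regions thus differed between rods and blue cones where the RNA did not pass the test (0.11, 95% interval -0.34 to 0.55).

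Cacna2d4, whose RNA was not called in any comparison, had regions that were. In its intron, 30710 bp downstream, ON-BCs held 115 and 86.4 and OFF-BCs 2.69 and 5.84 normalized ATAC-seq counts (4.32 ± 0.72; adjusted p = 0.00432), with 69.6 and 67.3 in pan-BCs, 1.56 and 0 in rods and 0 in both blue cone libraries. The region 18114 bp upstream, in an intron of Dcp1b, was highest in rods at 113 and 99.6, with 29.6 and 22.4 in OFF-BCs and 2.99 and 2.93 in ON-BCs (ON-BC versus OFF-BC -2.76 ± 0.43; adjusted p = 0.01). Its promoter region, 62 bp upstream, was open everywhere and more so in photoreceptors, with pan-BC libraries at 169 and 186, rod libraries at 593 and 581 and blue cone libraries at 440 and 387 (pan-BC versus rods -1.72 ± 0.16; adjusted p = 0.000421). A region at the second start site of Cacna2d4, which is nearer to that of Lrtm2 and not among the 104, went the other way, at 81.6 and 91.8 in pan-BCs and 1.56 and 7.45 in rods (4.23 ± 0.46; adjusted p = 7.45e-06).

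The ON-BC versus OFF-BC region calls rested on 2 libraries a side and moved when a library was left out. Without OFF-BC ATAC-seq library 1 the count called fell from 6 to 0. The call at Cacna2d1 69830 bp was lost in 3 of the 4 fits that each left out a library (adjusted p = 0.0571 to 0.116) and that at Cacna2d3 173059 bp in 2 of the 4 (adjusted p = 0.165 and 0.231). The 2 Cacna2d4 calls held in 3 of those 4 fits. The calls at Cacna2d1 81529 bp and Cacna2d3 133720 bp were lost whichever of the 4 libraries was left out. Both were also lost with TMM scaling (adjusted p = 0.0631 and 0.0697).

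**Figure D5:**
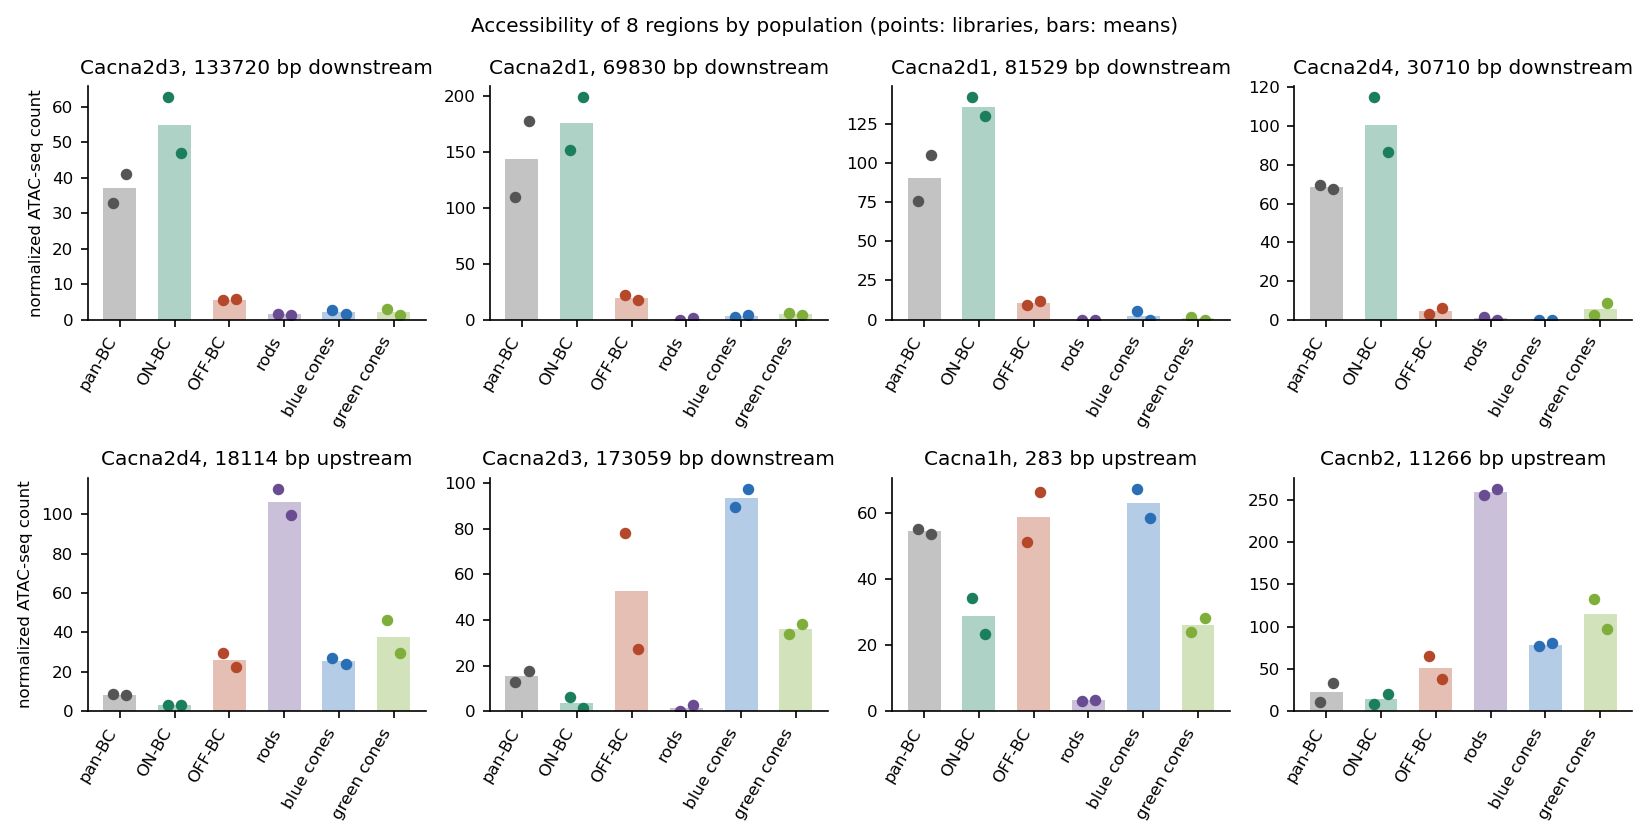
Normalized ATAC-seq count (vertical axis, linear from 0, own scale in each panel) of the 8 printed regions in 6 populations, with points for the 2 libraries and bars for their mean. The Cacna1h promoter region is near 3 in rods and above 50 in pan-BCs and blue cones, and the Cacnb2 region is highest in rods.

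At the promoter of Cacna1h, accessibility differed in the same direction as RNA. The region 283 bp upstream was at 3.12 and 3.39 normalized ATAC-seq counts in rods, 67.3 and 58.5 in blue cones, 55.2 and 53.6 in pan-BCs and 23.8 and 28.2 in green cones. It was less open in rods than in blue cones by -3.91 ± 0.37 (SE, n = 2 and 2; adjusted p = 1.63e-05), and more open in pan-BCs than in rods by 3.70 ± 0.37 (adjusted p = 5.61e-06). The difference between pan-BCs and blue cones was -0.20 ± 0.37 and not called. Over all 5 regions of Cacna1h, 4 were called less open in rods than in blue cones.

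The promoter regions of Cacna2d1, Cacna2d3, Cacna1d, Cacna1c and Cacna1g were also called more open in pan-BCs than in rods. Cacna2d1 was at 102 and 150 in pan-BCs and 1.56 and 0.678 in rods (5.91 ± 0.46; adjusted p = 8.94e-08), and Cacna2d3 at 29.6 and 30.2 against 0 and 2.71 (4.0 ± 0.80; adjusted p = 0.00209). Cacna1d, 130 bp upstream of its nearest start site, was at 90.4 and 85.5 against 5.45 and 10.2 (3.39 ± 0.45; adjusted p = 0.000108). The 2 Cacna1c regions changed by 3.09 ± 0.41 and 4.22 ± 0.49 (adjusted p = 0.000161 and 1.57e-05). Cacna1g changed least, at 198 and 145 in pan-BCs against 43.6 and 54.2 in rods (1.78 ± 0.28; adjusted p = 0.0129), a call lost with TMM scaling (1.57, adjusted p = 0.0558), without pan-BC library 1 (1.55, adjusted p = 0.112) and without rod library 1 (1.62, adjusted p = 0.0876). Its RNA rested on 7 reads in rods. All of these genes were called higher in pan-BCs by RNA too.

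The promoter regions of Cacna1f and Cacna1s were not called in these comparisons. Cacna1f was at 140 and 142 normalized ATAC-seq counts in rods and 58.4 and 61.6 in pan-BCs, which did not pass the test (-1.22 ± 0.29; adjusted p = 0.348). Cacna1s was at 44.8 and 57.1 in ON-BCs, 8.08 and 22.4 in OFF-BCs and 40.0 and 42.2 in pan-BCs. Its ON-BC libraries lay above its OFF-BC libraries, and the difference of 1.82 ± 0.52 was not called (adjusted p = 0.372). Against rods, at 7.01 and 14.2, pan-BC libraries were also higher, by 1.93 ± 0.52 (adjusted p = 0.0817). With 2 libraries a side, a p that misses the threshold does not show that these values did not differ.

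Cacnb2 had no region in the promoter window, and its rod-high RNA stood beside a rod-high region in an intron. That region, 11266 bp upstream of the nearest start site of Cacnb2, held 255 and 263 normalized ATAC-seq counts in rods, 132 and 97.2 in green cones, 76.4 and 80.9 in blue cones and 11.2 and 33.6 in pan-BCs. It was less open in pan-BCs than in rods by -3.66 ± 0.43 (adjusted p = 2.89e-05), and was not called in rods versus blue cones (1.71 ± 0.43; adjusted p = 0.31). Another intronic region of Cacnb2, 50410 bp downstream, went the other way, at 59.2 and 91.8 in pan-BCs, 1.56 and 0 in rods and 0 and 0.723 in blue cones (pan-BC versus rods 5.55 ± 0.62; adjusted p = 5.01e-06).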

How the data were processed

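RNA-seq covered 15 libraries of 5 sorted populations and ATAC-seq 12 libraries of 6 populations. Per the study's methods, SMARTer Ultra Low libraries were aligned to GRCm38 (mm10) with STAR 2.7.0d and counted per RefSeq gene with HTSeq 1.9; strand was not given in the sources used here. ATAC-seq reads were aligned with Bowtie2 (2.2.5 per the submitters' processing notes, a later version per the methods), duplicates were removed with Picard, long fragments were dropped, and MACS2 2.1.1 peaks were merged into regions of 200 bp. The deposited values are a signal, reads divided by 1 size factor per library by the authors, and 100.0% of nonzero values came out whole (within 0.01 read) when the step of each library was divided out. Files of peaks per library were not used, and 2 double-sorted green cone libraries were not analysed here.

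The main test was limma 3.58.1 (treat, threshold 1, trended prior) on log2(normalized count + 1) with R 4.3.3, all populations of an assay in 1 fit, with Benjamini-Hochberg adjustment over 14024 genes or 108448 regions kept by the edgeR filterByExpr rule on recovered reads. edgeR 4.0.16 (glmTreat) and DESeq2 1.42.0 on recovered reads were alternatives. The ON-BC versus OFF-BC fits were tested on simulated data with limma and edgeR for both assays and DESeq2 for RNA. The other comparisons were not. Of 100 features changed 4-fold, limma called 72 for RNA and 6 for ATAC-seq, and edgeR 91 and 19. Of 100 changed 16-fold, limma called 100 and 99. The simulation gave every feature the same spread between libraries, which the data need not have. Regions were assigned to the nearest RefSeq start site, with promoters from 1000 bp upstream to 100 bp downstream. Recovered reads carry no molecular identifiers, so precision reflects counting and the spread between libraries, which the labels call biological replicates.

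Members and lists were chosen with earlier results of these data known. Values of some other genes are not reported here. Every member was named; listed genes were eligible for naming where called, and regions where at a promoter or among the 3 largest called changes of a comparison.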

Additional observations from a re-analysis of the deposited data

How the results depend on the processing

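With limma against 0 in place of a threshold of 1, genes called numbered 3783 between ON-BC and OFF-BC, 11156 between pan-BC and rods, 10704 between pan-BC and blue cones and 8068 between rods and blue cones (919, 6112, 5092 and 2231 with the threshold), and all 10 calcium channel genes were called in pan-BC versus blue cones (6 with it). When each library was left out in turn, genes called ranged over 779 to 869, 5793 to 5924, 4706 to 4984 and 2007 to 2361, and calcium channel genes called were 2 in each of the 6 cases for ON-BC versus OFF-BC (4 with all libraries), 7 to 8, 6 and 4. Regions called then ranged over 0 to 4, 56 to 65, 34 to 40 and 10 to 12; leaving out an ATAC-seq library leaves an arm with 1 sample, which is assumed to vary like the other populations. With edgeR, 11 regions were called between ON-BC and OFF-BC and 27 between rods and blue cones (6 and 13 with limma). Within 50000 bp of a start site, 2, 33 and 21 regions remained called in the first 3 comparisons, by construction from fewer regions. The sign turned for 3 small differences that were called in none of these fits: Cacna2d4 in ON-BC versus OFF-BC (range -0.02 to 0.27, lowest without OFF-BC library 3), Cacna1d in rods versus blue cones (-0.36 to 0.34, above 0 without rod library 2 and, at 0.10, without blue cone library 3) and Cacna2d3 there (-0.11 to 0.39, below 0 without rod library 3). The cause was not tested. Scaling to library totals moved the median of all genes by 0.34 in pan-BC versus rods and 0.28 in pan-BC versus blue cones, and raised the share of called genes that were higher in pan-BCs from 63.8 to 74% in the former. TMM scaling moved the ATAC-seq median by -0.21 in ON-BC versus OFF-BC, where the share of called regions more open in ON-BCs went from 62.1 to 51.6%. Same-numbered ON-BC and OFF-BC libraries have the same age in the labels, which name no shared animal or sort, and their deviations correlated at r of -0.0763, 0.222 and -0.0649, so pairing was not assumed; with the replicate number as a block, 919, 6088, 5055 and 2214 genes, 4, 8, 6 and 4 calcium channel genes and 6, 65, 48 and 13 regions were called. In the fit with rods and blue cones alone, 7 of the 10 genes passed the filter on low counts. Depth limits Cacna1g, Cacna1c, Cacna1d and Cacna2d1 in rods, which rest on 7, 17, 21 and 16 reads.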
